A study of Caenorhabditis elegans with 22 samples.

Results

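The left arm of chromosome IV of the nematode Caenorhabditis elegans was examined as 583 bins of 10 kb, all those in the deposited read table that lie on that chromosome up to position 5830000 of build ce11. They are the left one of 3 equal lengths of the chromosome and make up 583 of the 10030 nuclear bins. DNA methylation left by fusions of the bacterial adenine methyltransferase Dam was sequenced from L1 larvae, a method called DamID. Dam::EMR-1 (strains GW1377 and GW1379) joins Dam to emerin, which sits in the inner membrane of the nuclear envelope, and GFP::Dam (GW1378 and GW1380) is free Dam that marks accessible chromatin.

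Each fusion was measured in 4 backgrounds. These were mrg-1 RNAi in GW1377 and GW1378 (2 replicates, numbered 2 and 3), the mutation cec-4(ok3124) with control RNAi in GW1379 and GW1380 (3 replicates), mrg-1 RNAi in those cec-4 strains (3 replicates, called the combination here), and the wild type genotype of GW1377 and GW1378 with control RNAi (3 replicates). All 22 libraries share FLP recombinase under the elt-2 promoter, which limits Dam to the intestine, and the hsp-16.41 promoter used without heat induction, which gives trace expression. Mothers were on RNAi bacteria for 66 h at 20 °C, and their larvae then spent 2.5 h in liquid culture with Dam- bacteria. DamID measures no RNA, so the intestinal label could not be checked against marker transcripts.

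In worm nuclei the arms of the autosomes are rich in repeats and in histone H3 methylated on lysine 9, and they tend to lie at the nuclear envelope, while the gene-rich centres lie further inside. CEC-4, which sits at the envelope, has a chromodomain that binds methylated lysine 9 of histone H3, and in embryos it anchors such chromatin there. MRG-1 is a chromodomain protein found on active genes. More Dam::EMR-1 than GFP::Dam signal marks DNA in contact with the envelope relative to its accessibility, and less marks accessible DNA with little contact.

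Libraries held 2240348 to 18553316 nuclear reads, and the 3 wild type Dam::EMR-1 libraries were the shallowest. The median bin of the arm held 153 to 455 reads, and 6 to 42 bins had none, depending on the library. The replicas are separate biological ones in which all strains were grown in parallel, so each Dam::EMR-1 library was paired with the like-numbered GFP::Dam library. The arm held 1019 protein-coding genes, 103 pseudogenes and 1621 of the 14714 genes for 21U-RNAs, the worm's piRNAs, on chromosome IV.

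In wild type more bins of the arm were higher than lower, and 291 were not called. Of 577 bins tested, 221 (38.3%) had more Dam::EMR-1 than GFP::Dam signal, where 25.4% of all tested bins of the genome did. Another 65 (11.3%) had less, where 29% of all tested bins did (edgeR quasi-likelihood test, Benjamini-Hochberg adjusted p under 0.05 over 9960 bins). The median log2 ratio of Dam::EMR-1 to GFP::Dam was 1.08 in the arm and -0.11 over all tested bins, and scaling by library size put the median over all bins at 0.04. By these counts the arm resembled the other 9 autosome arms, which had 42.8% higher and 13% lower among 4885 tested bins. The middle of chromosome IV was the opposite, at 24 higher and 258 lower of 579 and a median log2 ratio of -1.73.

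**Figure D1:**
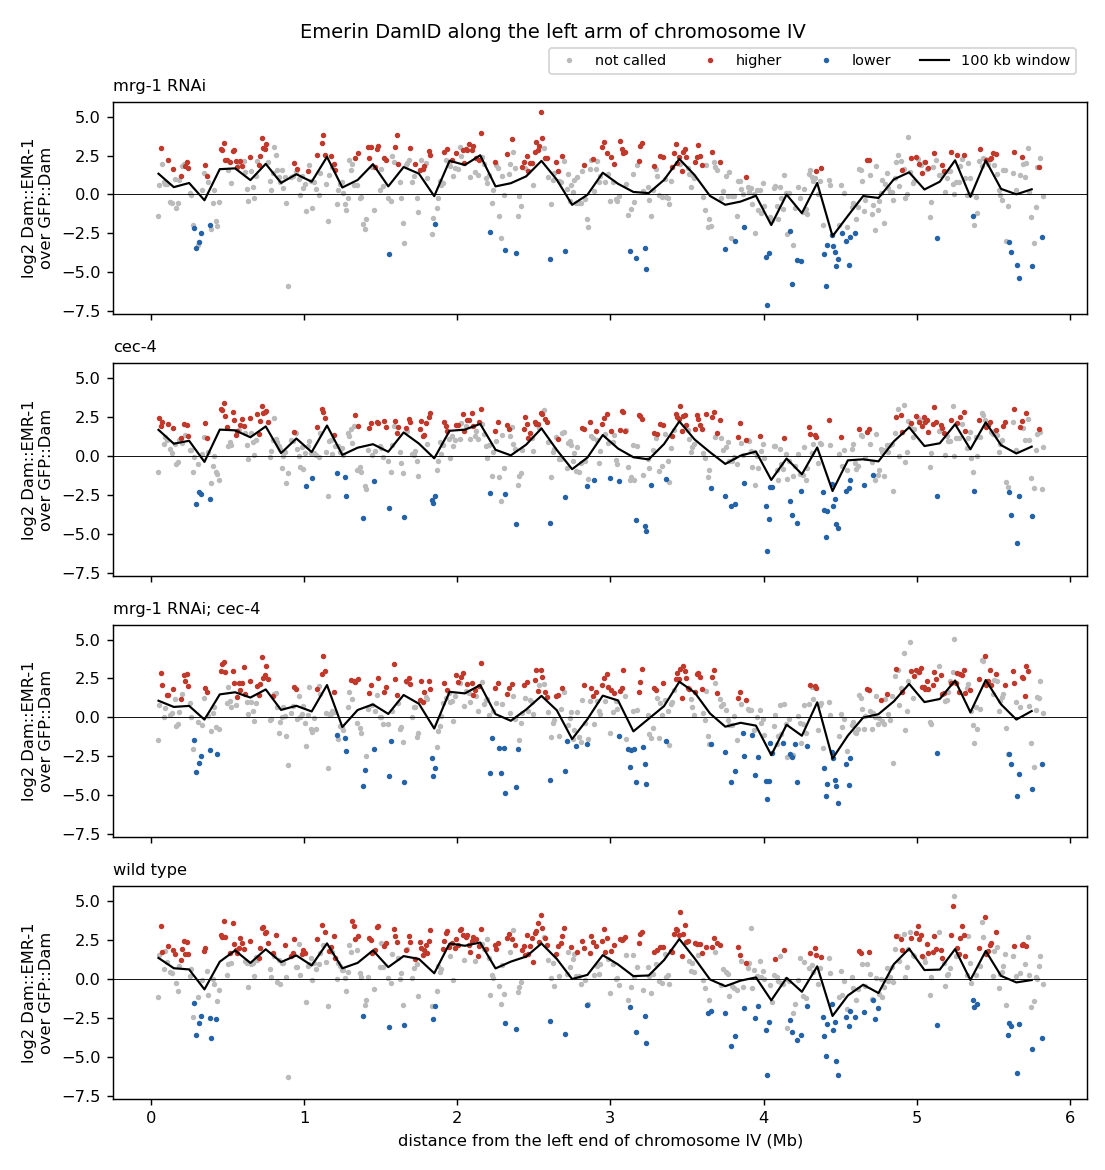
Log2 ratio of Dam::EMR-1 to GFP::Dam (y axis) against distance from the left end of chromosome IV in Mb (x axis), with 1 panel each for mrg-1 RNAi, cec-4, the combination and wild type. Points are tested 10 kb bins, red where called higher, blue where called lower and grey where not called, and the black line joins 100 kb windows; blue points are densest between 4 and 5 Mb, where 25 of 100 wild type bins were lower.

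The 221 higher bins formed 89 unbroken runs, 40 of a single bin. The longest covered 14 bins, positions 2420001 to 2560000, with a median log2 ratio of 2.49 and a range of 1.11 to 4.13. It holds ccdc-12, cdh-10, a cadherin, grd-16, of the groundhog family, and sprr-3, named for its likeness to the sex peptide receptor. A run of 12 bins, 3390001 to 3510000, goes from dyf-3 to ceh-53 through a cluster of srz chemoreceptor genes at a median of 2.83.

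The 65 lower bins formed 44 runs, 30 of a single bin. The longest run had 5 bins, 4440001 to 4490000, from wapl-1, which releases cohesin from DNA, to trx-3, a thioredoxin, with a median log2 ratio of -3.28. A run of 4 bins, 4380001 to 4420000, goes from tald-1, a transaldolase, to ell-1, a transcription elongation factor, at a median of -3.29. The 3 bins from 4010001 to 4040000 all lie on hlh-30 and had a median of -3.27.

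The 12 named high bins carry genes of varied function. The srz-23 bin, 3450001 to 3460000, with a chemoreceptor gene, had 110, 25.0 and 56.2 CPM (reads scaled to a fixed number of nuclear reads per library) in wild type Dam::EMR-1 libraries, against 1.82, 4.58 and 2.23 CPM in wild type GFP::Dam libraries. The groups did not overlap, and the log2 ratio was 4.28 ± 0.76 (SE, edgeR quasi-likelihood test, adjusted p = 0.000239). The glt-7 bin, 530001 to 540000, with a glutamate transporter gene, had 642, 882 and 462 reads with Dam::EMR-1, against 95, 191 and 126 reads with GFP::Dam. In CPM that was 249.7 ± 40.4 with Dam::EMR-1 and 20.8 ± 15.0 with GFP::Dam (SD, n = 3 each). Its log2 ratio of 3.56 ± 0.42 (edgeR, adjusted p = 5.21e-05) had a small error for a high bin. The gcy-37 bin, 2150001 to 2160000, with a soluble guanylyl cyclase of oxygen-sensing neurons, was deeply covered, at 1715, 1099 and 1851 reads with Dam::EMR-1 and 259, 380 and 733 reads with GFP::Dam. Its log2 ratio was 3.19 ± 0.54 (edgeR, adjusted p = 0.000176).

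Other high bins were those of sprr-3 (log2 ratio 4.13 ± 0.99), of mgl-3, a metabotropic glutamate receptor (3.99 ± 1.15), and of npr-37, a neuropeptide receptor (3.73 ± 0.72). They were joined by srx-13, a chemoreceptor gene (3.48 ± 0.92), and kvs-5, a voltage-gated potassium channel (3.31 ± 0.96). Genes of general function were also present. The cpsf-1 bin, with a factor for cleavage of pre-mRNA, stood at 3.22 ± 0.91, and the npp-8 bin, with a nuclear pore protein, at 3.21 ± 0.93.

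Calls for the remaining pair of named high bins, thn-5 and pes-1, were lost without single libraries. The thn-5 bin had 23, 1 and 1 reads with Dam::EMR-1 and 0, 1 and 1 with GFP::Dam, so its call (edgeR log2 4.66 ± 1.68, adjusted p = 0.0252) came mainly from replicate 1. That call was lost in 4 of the 6 fits without 1 wild type library, those without GFP::Dam replicate 1, 2 or 3 or Dam::EMR-1 replicate 1. The pes-1 bin, with a forkhead factor gene active in embryos, had 61, 56 and 52 reads with Dam::EMR-1 and 4, 25 and 11 with GFP::Dam. Its call (edgeR log2 3.38 ± 1.31, adjusted p = 0.0357) was lost in 5 of 6 such fits, all but the one without GFP::Dam replicate 2. The other 10 named high bins and the 12 named low bins stayed called in all 6, among them sprr-3 and mgl-3, each with 155 reads of Dam::EMR-1 and 23 of GFP::Dam in all.

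The 12 named low bins also carry genes of varied function. The hlh-30 bin, 4020001 to 4030000, lies inside the gene of a TFEB-like activator of autophagy and lysosome genes. It had 2.80, 14.6 and 8.48 CPM with Dam::EMR-1 in wild type, against 718, 387 and 468 CPM with GFP::Dam. Each GFP::Dam value was far above each Dam::EMR-1 value, and the log2 ratio was -6.16 ± 0.94 (edgeR, adjusted p = 0.000103). The skn-1 bin, 5650001 to 5660000, with the factor that specifies endoderm in the embryo and drives stress responses in the intestine, had 7.20, 17.5 and 4.02 CPM with Dam::EMR-1, against 892, 321 and 358 CPM with GFP::Dam. Its log2 ratio was -6.07 ± 1.07 (edgeR, adjusted p = 0.000231). The trx-3 bin, 4480001 to 4490000, had 3, 9 and 1 reads with Dam::EMR-1, against 751, 475 and 1199 with GFP::Dam, a log2 ratio of -6.18 ± 0.92 (edgeR, adjusted p = 8.96e-05).

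The other 9 named low bins had log2 ratios of -4.48 to -3.60. They include those of nhr-46, a nuclear hormone receptor (-4.48 ± 1.18), phkb-1, a phosphorylase kinase subunit of glycogen breakdown (-4.13 ± 0.77), nog-1, a GTPase of ribosome assembly (-3.79 ± 1.08), ell-1 (-3.68 ± 0.85) and pnp-1, a purine nucleoside phosphorylase (-3.60 ± 1.07). Also low were glct-6 (-4.32 ± 1.19), osgn-1 (-3.92 ± 0.76), bris-1 (-3.64 ± 0.90) and oops-1, an oocyte protein gene (-3.79 ± 0.91). The nog-1 bin was called lower in wild type and not in the other 3 backgrounds, and the difference between backgrounds did not itself pass the test.

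At 1 kb some of these signals were spread and some were not. The hlh-30 and skn-1 bins had GFP::Dam reads in 10 of 10 bins of 1 kb, and in all 10 the Dam::EMR-1 signal was the lower one. The glt-7 bin had reads of both fusions in 10 of 10, each with the higher signal from Dam::EMR-1. The npr-37 bin drew 93.3% of its Dam::EMR-1 and 95.9% of its GFP::Dam reads from a single 1 kb bin, and the oops-1 bin 95.3% of its GFP::Dam reads. Of the 1 kb bins with reads, 5 of 6 in the npr-37 bin and 3 of 7 in the oops-1 bin had the sign of the 10 kb call.

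The reads behind the calls, summed over 3 wild type libraries, differed for both fusions. The median higher bin had 1017 reads of Dam::EMR-1 against 549 of GFP::Dam. An uncalled bin had a median of 470 with Dam::EMR-1 against 1064 with GFP::Dam, and a lower bin 194 with Dam::EMR-1 against 3591 with GFP::Dam. These reads are not scaled for depth. Wild type libraries held 2500662, 3082222 and 2240348 nuclear reads with Dam::EMR-1, against 8225431, 5016363 and 9856595 with GFP::Dam. Raw reads of the fusions therefore cannot be compared directly within a bin. The calls rest on these same reads, so differences between the classes are no separate support. Protein-coding genes covered a median of 71.4% of a higher bin, 65.6% of an uncalled one and 74.3% of a lower one. Genes for 21U-RNAs were in 19.9% of higher, 23.4% of uncalled and 24.6% of lower bins.

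Gene groups were counted as the distinct bins that hold most of each member, and each count below stands beside 38.3% higher and 11.3% lower for all tested bins of the arm. Chemoreceptor genes, whose products detect odours in sensory neurons, have 57 members here in 41 tested bins. Of these bins 19 (46.3%) were higher, 2 lower and 20 not called, with a median log2 ratio of 2.11, beside 1.08 for all 577 bins. By family, 7 of 11 srz bins, 4 of 11 str bins, 3 of 3 srt bins and 2 of 2 srm bins were higher. The extremes were srz-23 at 4.28 ± 0.76 and srsx-16 at -3.06 ± 0.88, and srv-4 held the other lower bin.

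Major sperm protein genes, whose products move the sperm, occupied 6 bins, of which 5 were higher and 1 was not called. Their median log2 ratio was 2.11, with msp-51 highest at 3.38 ± 0.86 and msp-55 lowest at 1.09 ± 0.52, not called. These genes are near-identical copies, so reads could be split among them and the values are uncertain. Collagen genes of the cuticle had 7 higher, 3 lower and 5 uncalled bins of 15, at a median of 1.32, from col-104 at 2.73 ± 0.49 to col-34 at -3.60 ± 0.85.

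Genes of the ribosome and proteasome lay in 6 bins, of which 4 were lower, none was higher and 2 were not called, with a median of -2.16. The rps-28 bin, with a ribosomal protein gene, was lowest at -2.93 ± 1.06, and rpl-15 was highest at 0.94 ± 0.66, not called. The single gene here from the intestine list, spl-1, a sphingosine phosphate lyase, shares its bin with rps-24, which stood at -2.54 ± 0.58 and was lower.

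The remaining families had fewer called bins. C-type lectins had 3 higher and 4 lower of 22 bins (median 0.12), from clec-171 at 2.60 ± 0.58 to clec-178, which shares the skn-1 bin, at -6.07 ± 1.07. Nuclear hormone receptors had 3 higher and 1 lower of 11 bins (median -0.54), from nhr-236 at 2.63 ± 0.49 to nhr-46. F-box, MATH and BTB genes had 1 higher and 1 lower of 10 bins (median 0.14), with fbxc-8 highest at 1.48 ± 0.40 and fbxc-1 lowest at -6.31 ± 2.87, not called. Detoxification enzymes had 1 higher, gst-40 at 2.32 ± 0.70, and 1 lower, ugt-45 at -2.21 ± 0.71, of 5. Bins with 21U-RNA genes had 43 higher and 16 lower of 127 (median 1.37), and those with tRNA genes 5 higher and 2 lower of 18 (median 1.00). No gene of the histone or germline lists starts here.

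**Figure D2:**
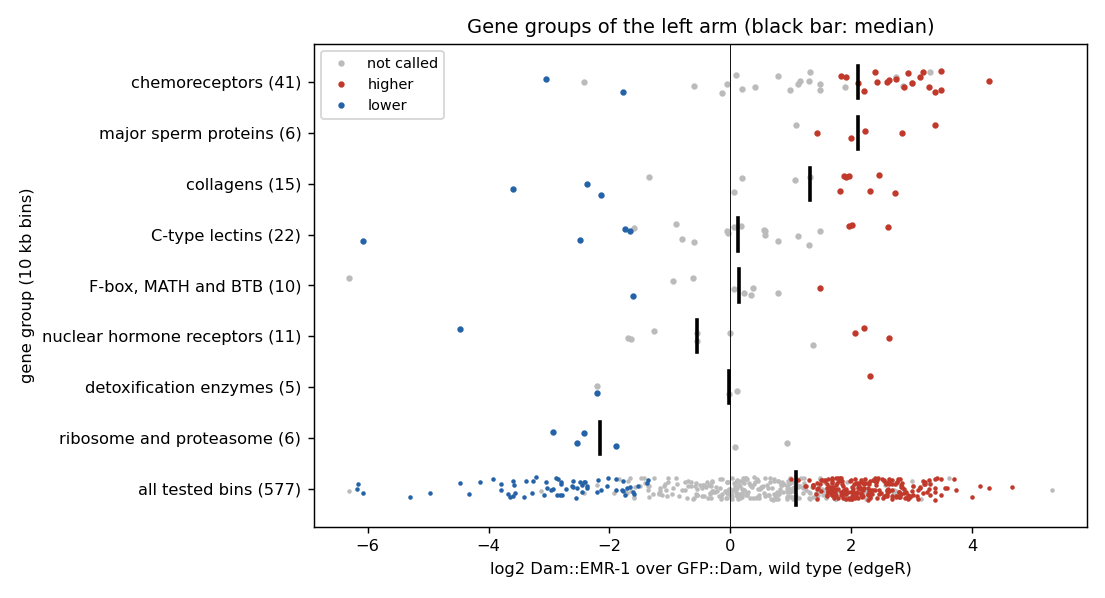
Wild type log2 ratio of Dam::EMR-1 to GFP::Dam (x axis) for the tested 10 kb bins of each gene group on the arm (rows, with the number of bins), 1 point a bin, red where called higher, blue where called lower and grey where not called, with the median as a black bar. The 41 chemoreceptor bins have a median of 2.11 and the 6 ribosome and proteasome bins one of -2.16, beside 1.08 for all 577 bins.

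The arm was not uniform along its length. In wild type the share of higher bins was 44.2% in the first Mb, 43% in the second, 55% between 2 and 3 Mb and 37.4% between 3 and 4 Mb. It dropped to 14% between 4 and 5 Mb, where 25 of 100 bins were lower, and was 36.1% of 83 bins beyond 5 Mb. The stretch between 4 and 5 Mb holds 221 protein-coding genes, more than any other segment of the arm, and the last 83 bins hold 1322 of the 1621 genes for 21U-RNAs. The mean log2 ratio of the segment between 4 and 5 Mb was the lowest of the 6 in 11 of 11 pairs. Next to the arm, the segments from 7 to 11 Mb had wild type means of -1.63, -1.89, -1.98 and -2.60.

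Maps of the other backgrounds shared most of their calls with wild type. With mrg-1 RNAi 152 bins were higher and 47 lower, where 18.5% and 21.1% of all tested bins were. In cec-4 mutants 175 were higher and 65 lower (21.1% and 20.3% of all), and in the combination 180 and 79 (23.7% and 22.9% of all). Of these higher bins, 137 with mrg-1 RNAi, 155 in cec-4 mutants and 155 in the combination were also higher in wild type. That is 90.1%, 88.6% and 86.1% of their own lists, and 62%, 70.1% and 70.1% of the wild type list. Of the lower bins, 45 with mrg-1 RNAi, 50 in cec-4 mutants and 51 in the combination were also lower in wild type. These were 95.7%, 76.9% and 64.6% of their own lists, and 69.2%, 76.9% and 78.5% of the wild type list. No bin was higher in one of these maps and lower in wild type, or the reverse. The same overlaps with wild type were not counted over all tested bins, so they do not set the arm apart from the genome. Across all 4 maps 108 bins (18.7%) were higher and 39 (6.76%) lower, where 14.0% and 14.4% of all tested bins were. In all 11 pairs 242 bins (41.9%) were above 0 and 79 (13.7%) below 0, where 28.9% and 26% of all tested bins were.

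The level of the whole arm, on the scale of read shares, did not differ detectably between backgrounds. The mean log2 ratio over its bins, from CPM with a pseudocount of 1, was 0.61 and 0.56 with mrg-1 RNAi. It was 0.69, 0.44 and 0.88 in cec-4 mutants, 0.65, 0.40 and 0.30 in the combination, and 1.29, 0.29 and 0.88 in wild type. On this scale wild type pairs spanned the values of all the others. With TMM scaling, which the edgeR fits use, they were 0.56 to 0.74 in wild type. Values then were 0.37 to 0.43 in cec-4 mutants and 0.24 to 0.47 in the combination, without overlap with wild type. With mrg-1 RNAi they were 0.69 and 0.40. By limma with TMM neither difference from wild type was called, at -0.24 ± 0.12 (cec-4, adjusted p = 0.173) and -0.29 ± 0.12 (combination, adjusted p = 0.108). The main limma fit gave all 18 chromosome parts the same SE within a contrast, so the spread was pooled over parts. Parts of 1 pair are not independent, so these p-values may be too small. In limma over 18 chromosome parts the difference from wild type was -0.24 ± 0.28 for mrg-1 RNAi (SE, adjusted p = 0.675), -0.15 ± 0.25 for cec-4 (adjusted p = 0.776) and -0.37 ± 0.25 for the combination (adjusted p = 0.342). Of the 18 parts, 0%, 33.3% and 27.8% were called higher in these contrasts, and 0%, 0% and 5.56% lower. The combination differed by -0.22 ± 0.25 from cec-4 (limma, adjusted p = 0.665; 5.56% of parts lower) and by -0.13 ± 0.28 from mrg-1 RNAi (limma, adjusted p = 0.81; 27.8% of parts higher). Without wild type replicate 2 the combination was lower by limma, at -0.64 (adjusted p = 0.0241), and without wild type replicate 1 the cec-4 difference was 0.08.

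Centring each pair on its mean over all nuclear bins changed these calls. That mean includes the 6 chromosome centres, all called higher in cec-4 mutants without centring, by 0.86 to 1.36 (limma). A rise elsewhere in the genome lowers the centred arm, so the centred values do not show a change of the arm itself. Without centring the arm differed by -0.15 in cec-4 mutants. The centred p-values also pool the spread over parts and may be too small. Relative to the genome mean the arm was lower in cec-4 mutants by limma, at -0.53 ± 0.11 (adjusted p = 0.000466), and in the combination, at -0.53 ± 0.11 (adjusted p = 0.000466). With mrg-1 RNAi it was -0.16 ± 0.12 (limma, adjusted p = 0.291), and the combination differed from mrg-1 RNAi by -0.37 ± 0.12 (limma, adjusted p = 0.0167). Of the 18 parts, centring left 6 higher and 9 lower in cec-4 mutants, 3 higher and 1 lower with mrg-1 RNAi, 6 higher and 7 lower in the combination, each against wild type, and 6 higher and 6 lower in the combination against mrg-1 RNAi.

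The left arm was also set against the centre of the same chromosome. It exceeded the centre in 11 of 11 pairs, by a mean of 1.74 ± 0.50 (SD; two-sided exact sign-flip permutation test, p = 0.000977, the smallest possible). The test takes the pairs as independent, although those of 1 replicate number were grown in parallel, so its p may be too small. The gap was 1.97 ± 0.18 with mrg-1 RNAi (n = 2), 1.38 ± 0.18 in cec-4 mutants, 1.32 ± 0.13 in the combination and 2.38 ± 0.16 in wild type (SD, n = 3 each). It was smaller than in wild type by 1.01 in cec-4 mutants, by 0.41 with mrg-1 RNAi and by 1.06 in the combination, with no overlap (exact permutation test, p = 0.1 each, the smallest possible, 0.125 after adjustment over 5 contrasts). The cec-4 effect within RNAi was -0.83 (exact permutation within RNAi, p = 0.005, the smallest possible, and 0.06 adjusted over 12 tests). The arm itself differed from wild type by -0.15 and -0.37 in these backgrounds, as above, while the centre was higher than in wild type by 0.86 ± 0.25 in cec-4 mutants (limma, adjusted p = 0.00827) and by 0.69 ± 0.25 in the combination (limma, adjusted p = 0.0402). These limma p-values pool the spread over chromosome parts, as above, and may be too small.

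Between arms, the left arm was below the right arm of chromosome IV by 0.24 ± 0.18, in all but 1 of 11 pairs (SD; exact sign-flip permutation test, p = 0.00293). The sign-flip tests here also take same-numbered pairs as independent, so their p-values may be too small. In wild type alone the difference was -0.12 ± 0.23 (SD, n = 3), at -0.27, 0.14 and -0.22. In 100 kb bins the difference over all pairs was -0.090 ± 0.13, above 0 in 3 of 11 pairs (exact sign-flip permutation test, p = 0.0410), and the wild type mean was 0.031. With a pseudocount of 5 the difference over all pairs was -0.13 ± 0.13 (p = 0.00977, exact sign-flip permutation test). The left arm differed from the mean of the other 9 autosome arms by -0.04 ± 0.05 (exact sign-flip permutation test, p = 0.0283), above it in 2 of 11 pairs. That p was over 0.05 in 5 of the 11 tests without 1 pair, those without mrg-1 RNAi replicate 2 (0.0508) or 3 (0.0566), combination replicate 1 or 3 (0.0566 each) or wild type replicate 2 (0.0547). In 100 kb bins the mean difference was 0.0073 (exact sign-flip permutation test, p = 0.756).

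**Figure D3:**
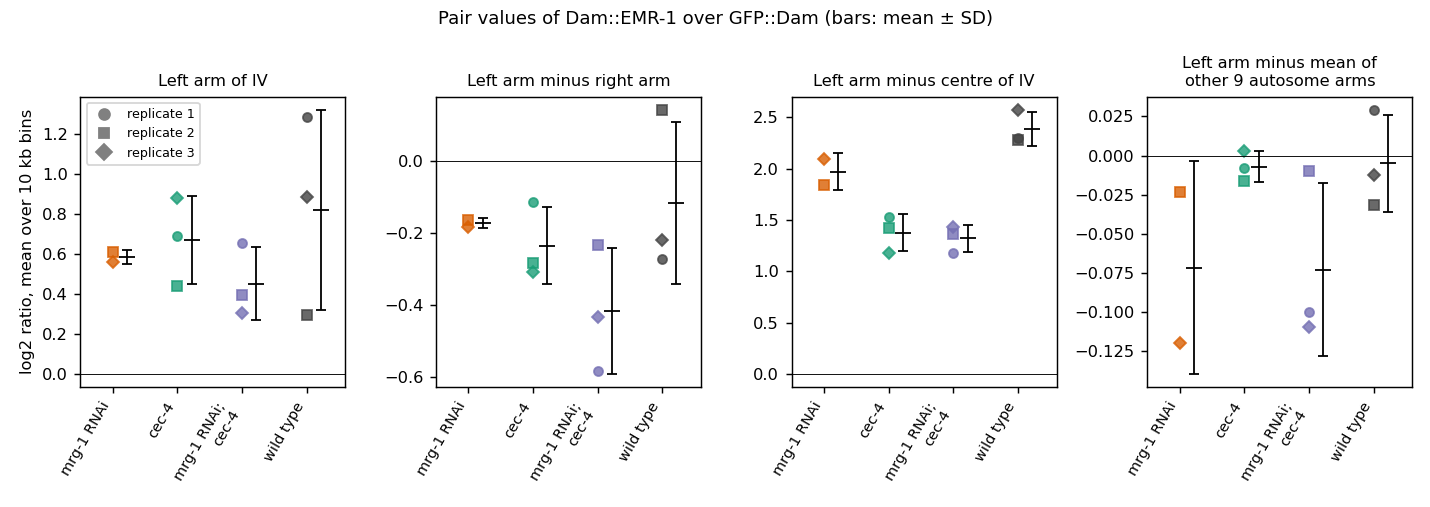
Pair values (y axis, log2 ratio of Dam::EMR-1 to GFP::Dam, mean over 10 kb bins) by background for the left arm of chromosome IV and for its difference from the right arm, from the centre and from the mean of the other 9 autosome arms, each panel with its own scale. Symbols mark replicate numbers and bars the mean ± SD; the gap to the centre is 1.38 in cec-4 mutants, 1.32 in the combination and 2.38 in wild type.

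The share of reads that fell on the arm was taken for each fusion by itself. The arm took 7.75% and 7.46% of Dam::EMR-1 reads with mrg-1 RNAi, 8.10%, 6.98% and 7.94% in cec-4 mutants, 7.06%, 6.79% and 7.03% in the combination and 7.72%, 7.99% and 8.09% in wild type. The combination lay below wild type and below mrg-1 RNAi without overlap, by 0.97 and 0.64 percentage points (exact permutation test, p = 0.1 each, the smallest possible, 0.25 adjusted over 5 contrasts). Shares of GFP::Dam reads were 4.72% ± 0.30 with mrg-1 RNAi (SD, n = 2), 4.62% ± 0.25 in cec-4 mutants, 4.46% ± 0.23 in the combination and 4.54% ± 0.55 in wild type (SD, n = 3 each), and overlapped.

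Within the arm, the segments between 1 and 3 Mb were lower in the combination than in wild type. Between 1 and 2 Mb pair values were 0.60, 0.31 and 0.15 in the combination and 1.62, 0.84 and 1.36 in wild type, with no overlap. The difference was -0.92 ± 0.26 (limma over all nuclear 1 Mb segments and 5 contrasts, adjusted p = 0.0129). Segments of 1 pair are not independent, so the limma p-values for segments may be too small. Between 2 and 3 Mb pair values were 0.79, 0.54 and 0.37 in the combination and 2.00, 0.89 and 1.58 in wild type, a difference of -0.92 ± 0.27 (limma, adjusted p = 0.0189). The 4 other segments were not called, and 9.71% of all segments were lower and 26.2% higher in this contrast. Without wild type replicate 3 the adjusted p from limma was 0.0583 and 0.0746 for these 2 segments, and without combination replicate 3 it was 0.0616 and 0.0776. Without combination replicate 2 it was 0.0513 for the segment between 2 and 3 Mb.

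The same segments differed in Dam::EMR-1 reads alone. The segment between 1 and 2 Mb took 1.19% ± 0.13 of them in the combination and 1.79% ± 0.17 in wild type, and the one between 2 and 3 Mb 0.971% ± 0.081 in the combination and 1.43% ± 0.05 in wild type (SD, n = 3 each). Shares of GFP::Dam reads overlapped, at 0.668% ± 0.067 in the combination and 0.674% ± 0.157 in wild type between 1 and 2 Mb. Beyond 5 Mb the Dam::EMR-1 share was higher, at 0.909% ± 0.051 in the combination and 0.683% ± 0.066 in wild type, without overlap and without a test, while the log2 difference over 5 to 6 Mb was 0.46 ± 0.35 (limma, adjusted p = 0.413).

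In cec-4 mutants the same 2 segments differed from wild type by -0.61 ± 0.26 and -0.60 ± 0.27, short of the threshold (limma, adjusted p = 0.0942 and 0.125), while 34% of all segments were higher and 3.88% lower. With mrg-1 RNAi they differed by -0.34 ± 0.29 and -0.31 ± 0.30 (limma, adjusted p = 0.456 and 0.548). The combination differed from mrg-1 RNAi by -0.58 ± 0.29 and -0.62 ± 0.30 (limma, adjusted p = 0.162 for both), where 16.5% of all segments were higher and 2.91% lower, and from cec-4 by -0.31 ± 0.26 and -0.33 ± 0.27 (limma, adjusted p = 0.447 and 0.452), where 0% were higher and 3.88% lower.

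**Figure D4:**
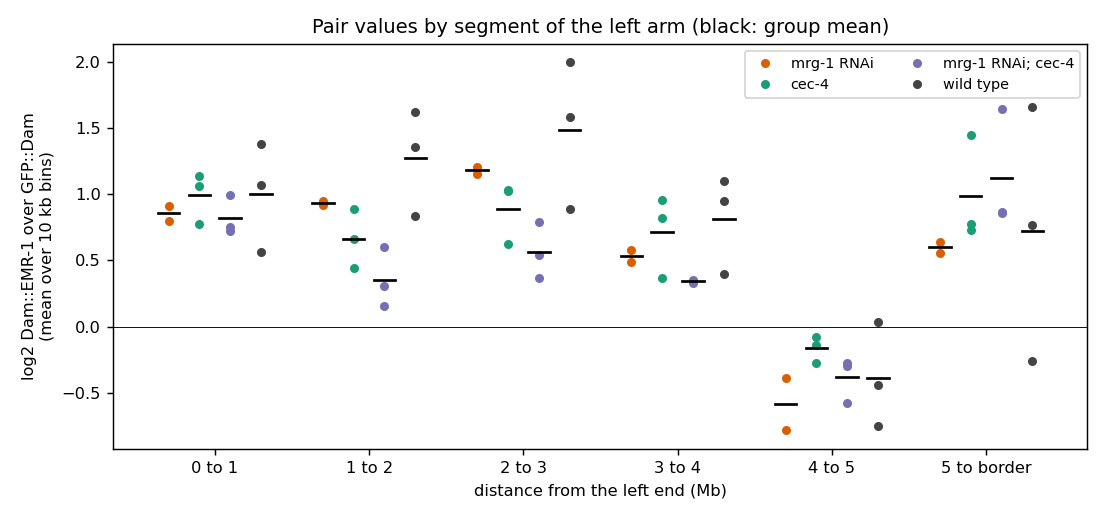
Mean log2 ratio of Dam::EMR-1 to GFP::Dam over the 10 kb bins of each segment (y axis) against distance from the left end in Mb (x axis), 1 point a replicate pair, coloured by background, with the group mean as a black bar. The segments between 1 and 3 Mb are lower in the combination than in wild type, and the one between 4 and 5 Mb is the lowest in 11 of 11 pairs.

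In windows of 100 kb, 58 lie wholly in the arm. The wild type map had 36 higher and 6 lower, where 34.7% and 42.2% of 1004 windows were. With mrg-1 RNAi 28 were higher and 4 lower (32.9% and 36.4% of all windows), in cec-4 mutants 28 and 4 (33.1% and 32.9%), and in the combination 30 and 9 (33.6% and 35%). The combination had 4 windows lower and 1 higher than wild type, where 4.98% and 12.5% of all windows were (edgeR quasi-likelihood test, adjusted p under 0.05). With the replicate block 11 were lower and 1 higher, where 8.57% and 19.3% of all windows were. Between 1 and 3 Mb the fitted difference from wild type in the combination was below 0 in 20 of 20 windows. That stretch had already been called lower from the same libraries, so the count is no separate support. Differences were below 0 in 6 of 10 windows of the first Mb and 7 of 10 between 3 and 4 Mb. Between 4 and 5 Mb it was 5 of 10, and beyond 5 Mb 0 of 8.

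The atln-1 window, 2700001 to 2800000, with an atlastin GTPase that shapes the endoplasmic reticulum, had 166, 269 and 162 Dam::EMR-1 CPM in the combination, against 667, 551 and 509 CPM in wild type. The log2 difference was -1.38 ± 0.43 (edgeR, adjusted p = 0.0306), and the call was lost in 7 of 12 fits without 1 library. The clec-170 window, 1200001 to 1300000, had 504, 652 and 240 Dam::EMR-1 CPM in the combination, against 1094, 1200 and 913 CPM in wild type, a log2 difference of -1.29 ± 0.38 (edgeR, adjusted p = 0.0250), lost in 3 of 12.

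The egl-4 window, 1800001 to 1900000, with a cGMP-dependent protein kinase, had 461, 812 and 355 Dam::EMR-1 CPM in the combination, against 859, 1240 and 904 CPM in wild type. Its log2 difference was -1.08 ± 0.34 (edgeR, adjusted p = 0.0332), lost in 6 of 12. The cdh-10 window, 2400001 to 2500000, named after its values were seen, had 814, 1020 and 671 Dam::EMR-1 CPM in the combination, against 1442, 1483 and 1540 CPM in wild type, a log2 difference of -0.93 ± 0.28 (edgeR, adjusted p = 0.0271), lost in 3 of 12. In these 4 windows the Dam::EMR-1 values of the groups did not overlap and the GFP::Dam values did. The windows were chosen by their test in these same libraries, so the lack of overlap is no separate support. None of the 4 was called with library size scaling.

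The single libraries on which these calls rested can be named. For atln-1 they were each combination GFP::Dam library of replicates 1 and 2, the combination Dam::EMR-1 libraries of replicates 1 and 3, the wild type Dam::EMR-1 library of replicate 1 and the wild type GFP::Dam libraries of replicates 2 and 3 (adjusted p from edgeR up to 0.0832 without one of them). For clec-170 they were combination GFP::Dam replicate 2, combination Dam::EMR-1 replicate 3 and wild type GFP::Dam replicate 3 (edgeR, up to 0.0623). For egl-4 they were combination GFP::Dam replicates 1 and 2, combination Dam::EMR-1 replicates 1 and 3, wild type Dam::EMR-1 replicate 2 and wild type GFP::Dam replicate 3 (edgeR, up to 0.0895). For cdh-10 they were replicate 3 of both fusions in the combination and of Dam::EMR-1 in wild type (edgeR, up to 0.0742).

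The window that rose was that of eor-1, a zinc finger transcription factor, at 4700001 to 4800000. It had 1559, 1252 and 1282 Dam::EMR-1 CPM in the combination, against 628, 666 and 707 CPM in wild type. The groups did not overlap, in a window likewise chosen by its test in these libraries. The log2 difference was 1.12 ± 0.30 (edgeR, adjusted p = 0.0155). It was lost in 1 of 12 fits, that without wild type GFP::Dam replicate 1 (adjusted p = 0.0508).

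**Figure D5:**
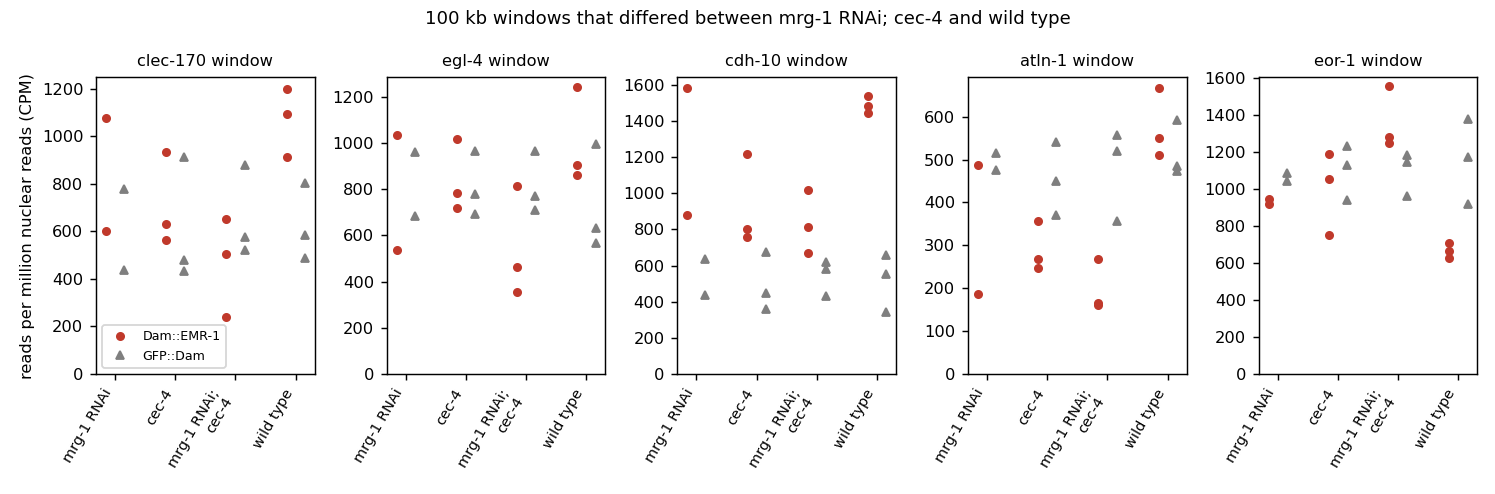
CPM (y axis) in the 5 windows of 100 kb called between the combination and wild type, by background, 1 point a library, red circles for Dam::EMR-1 and grey triangles for GFP::Dam. The Dam::EMR-1 values of the combination lie apart from those of wild type in all 5 windows, below in 4 and above in the eor-1 window, while GFP::Dam values overlap. The windows were chosen by their test in these same libraries.

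No window of the arm was called in the other 4 contrasts by edgeR, and 5 (cec-4 against wild type), 0 (mrg-1 RNAi against wild type), 3 (combination against cec-4) and 5 (combination against mrg-1 RNAi) of the 58 had an unadjusted p under 0.05, beside 29.1%, 5.28%, 3.88% and 13.4% of all windows. Of all windows, 4.58% were higher and 1.1% lower in cec-4 mutants than in wild type, and 0.199% were lower in the combination than with mrg-1 RNAi. DESeq2 called 2 windows of the arm (3.45%) lower in cec-4 mutants, where it called 3.39% of all windows lower, and with the replicate block edgeR called 4 (6.9%) lower, where it called 6.08% of all lower and 19.1% higher. The largest cec-4 differences, not called, were -1.07 ± 0.35 for clp-7, a calpain, -1.07 ± 0.48 for tftc-1, 0.78 ± 0.30 for gbb-2, a GABA-B receptor subunit, and 0.67 ± 0.70 for nhr-46. With mrg-1 RNAi they were -0.66 ± 0.48 for atln-1, -0.58 ± 0.50 for hlh-30, 0.69 ± 0.33 for eor-1 and 0.52 ± 0.39 for npr-37.

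Between the combination and cec-4 the largest, not called, were -0.88 ± 0.30 for gbb-2, -0.88 ± 0.45 for hlh-30, 0.62 ± 0.49 for eel-1, a ubiquitin ligase, and 0.56 ± 0.30 for eor-1. Between the combination and mrg-1 RNAi they were -1.11 ± 0.39 for clp-7, -1.06 ± 0.42 for clec-170, 0.73 ± 0.44 for str-163 and 0.67 ± 0.33 for hot-9. At 10 kb edgeR called 0 of 577 bins of the arm, and 0 of all 9960 tested bins, in any of the 5 contrasts. DESeq2 called 0 in the arm. Over all 9960 bins it called 4 higher and 5 lower in cec-4 mutants and 10 higher and 15 lower in the combination, each against wild type. It called none in the other contrasts. An unadjusted edgeR p under 0.05 was found for 29 bins in the combination, 21 in cec-4 mutants and 6 with mrg-1 RNAi, each against wild type, or 5.03%, 3.64% and 1.04% of the arm, beside 7.35%, 5.53% and 1.89% of all tested bins.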

How the data were processed

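The deposited tables hold raw counts, the reads of each library that the authors mapped to build ce11 in bins of 1, 10 or 100 kb, per the file headers and the labels. The aligner and its treatment of repeats: not given in the sources used here. The log2 ratio table deposited by the authors, 1 column a background, gave arm means of 0.73 (mrg-1 RNAi), 0.91 (cec-4), 0.65 (combination) and 1.21 (wild type) in the authors' deposited table, and entered no test.

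From the deposited counts, edgeR 4.0.16 (R 4.3.3; TMM, filterByExpr, quasi-likelihood test, 1 fit of 22 libraries) gave log2 ratios and differences, with Benjamini-Hochberg adjustment over all bins. Pair values are means over bins of log2((CPM + 1)/(CPM + 1)) for the libraries of 1 number, tested with limma 3.58.1 and exact permutation tests, two-sided. DESeq2 1.42.0, library size scaling, no filter, a pseudocount of 5, a replicate block, arms of 4 Mb, other bin sizes and each library or pair left out were alternatives. With 3 against 3 or 2 against 3 pairs the smallest exact p is 0.1. Replicate libraries differed by more than counting error, with a chi-square per degree of freedom of 44.1 to 417 over 10 kb bins, so errors come from the spread between replicates. The scripts were tested on simulated data.

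Replicate numbers pair libraries because all strains of a replica were grown in parallel, per the labels. Deviations of same-numbered libraries of 1 fusion in different backgrounds correlated above 0.1 in 12 of 15 Dam::EMR-1 and 15 of 15 GFP::Dam comparisons. These comparisons do not check the pairing of Dam::EMR-1 with GFP::Dam. The main edgeR and limma fits hold no term for the replicate number. Gene positions and symbols come from the RefSeq table. Named bins are the 12 called ones with the largest wild type ratio each way, 1 at most per 100 kb, the largest 100 kb differences, and the extremes of each gene list. The bins and lists were chosen with earlier results of these data known.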

Additional observations from a re-analysis of the deposited data

Results flagged for a closer look

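These differences between backgrounds passed a test of the difference itself before adjustment over related tests or after it. For 100 kb windows of the combination against wild type the log2 differences were -1.29 (clec-170), -1.08 (egl-4), -0.93 (cdh-10), -1.38 (atln-1) and 1.12 (eor-1). For the segments of 1 Mb they were -0.92 between 1 and 2 Mb and -0.92 between 2 and 3 Mb. The gap of the left arm over the centre of chromosome IV was changed by -0.83 by the cec-4 mutation within RNAi (exact permutation, p = 0.005, adjusted over 12 tests 0.06). The difference between the left arm and the other 9 autosome arms was changed by -0.066 by mrg-1 RNAi within genotype (exact permutation, p = 0.03, adjusted 0.18). The share of Dam::EMR-1 reads in the arm was changed by -0.52 percentage points by mrg-1 RNAi within genotype (exact permutation, p = 0.045, adjusted 0.18). The last pair, and the gap to the centre, do not pass the adjustment.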

How the results depend on the processing

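The wild type map kept its balance, with 284 higher and 75 lower bins under the replicate block, 239 and 80 by DESeq2, 205 and 53 with library size scaling, and 177 to 201 and 52 to 69 with 1 library left out. Over the 9960 tested bins of the genome these calls were 3205 higher and 3251 lower (block), 2670 and 3359 (DESeq2) and 2278 and 2367 (library size scaling). With 1 wild type library left out, 2008 to 2313 bins were higher and 2382 to 2853 lower over the genome. With the replicate block the maps had 219 higher and 65 lower bins (mrg-1 RNAi), 233 and 86 (cec-4) and 232 and 105 (combination). Over the genome that block gave 2599 and 2681, 2791 and 2488, and 3010 and 2801. Library size scaling gave 98 higher bins with mrg-1 RNAi, beside 1256 over the genome. Lower 100 kb windows in the combination numbered 0 with library size scaling, 11 under the replicate block and 9 by DESeq2, and 1 to 8 with 1 library left out (higher windows 0 to 1). Of all windows, 8.57% were lower under the block and 7.17% by DESeq2. In cec-4 mutants lower windows of the arm numbered 4 under the block, 2 by DESeq2 and 0 to 1 with 1 library left out. Of all windows, the block called 6.08% lower there and DESeq2 3.39%. Of the 6 segments of 1 Mb in the arm, those called, by alternatives chosen after seeing the data, were 2 (TMM) and 4 (centred) for cec-4 against wild type, 4 (centred) for the combination against wild type, and 2 (TMM) and 3 (centred) for the combination against mrg-1 RNAi. Many of all 103 segments were called too. For cec-4 these were 34 higher and 15 lower (TMM) and 33 and 39 (centred). For the combination they were 31 and 35 against wild type (centred). Against mrg-1 RNAi they were 16 and 12 (TMM) and 21 and 21 (centred). With 1 pair left out the called segments of the arm were 0 to 2, 0 to 3 and 0 to 1 in these 3 contrasts. The cause was not tested.

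Centred on the genome mean, the arm level differed by -0.53 (cec-4 against wild type), -0.53 (combination against wild type), -0.37 (combination against mrg-1 RNAi) and 0.000884 (combination against cec-4). With TMM the cec-4 effect within RNAi on the arm level was -0.22 (exact permutation, p = 0.015). In 100 kb bins the mrg-1 effect within genotype was -0.27 on the left arm minus centre and -0.16 on the left minus right arm (exact permutation, p = 0.04 each). For the arm minus the other 9 autosome arms, cec-4 against wild type was 0.0062 with pseudocount 5, 0.070 in 100 kb bins, 0.0038 with TMM and 0.00998 with arms of 4 Mb. The cec-4 effect was 0.056 in 100 kb bins and 0.0013 with TMM, the mrg-1 effect -0.070 with arms of 4 Mb (exact permutation, p = 0.1), the combination against mrg-1 RNAi 0.012 under the replicate block and 0.042 in 100 kb bins, and all pairs 0.0073 in 100 kb bins.

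With 1 pair left out the arm level ranged from -0.41 to 0.083 (cec-4 against wild type) and -0.64 to -0.14 (combination against wild type), and its mrg-1 effect from -0.36 to -0.11. The left arm minus centre ranged from -0.30 to -0.17 (mrg-1 effect) and -0.15 to 0.025 (combination against cec-4), and the left minus right arm from -0.20 to 0.010 (cec-4) and -0.13 to 0.072 (mrg-1 RNAi). The arm minus other arms ranged from -0.043 to -0.028 (all pairs), -0.015 to 0.015 (cec-4), -0.026 to 0.022 (cec-4 effect), -0.090 to -0.042 (mrg-1 effect) and -0.049 to 0.047 (combination against mrg-1 RNAi). Shares of Dam::EMR-1 reads ranged from -0.47 to 0.086 (cec-4) and those of GFP::Dam reads from -0.21 to 0.34 (cec-4), -0.12 to 0.43 (mrg-1 RNAi) and -0.37 to 0.18 (combination). The pes-1 bin was not called with library size scaling (3.33, edgeR adjusted p = 0.0911). Shallow wild type Dam::EMR-1 libraries and 2 to 3 pairs limit what differences could be seen.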
